A study of Rattus norvegicus with 26 samples.

Results

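Nqo1, Aldh3a1 and Ugdh were followed across a dose series of TCDD and PCB 126 in primary rat hepatocytes. They are 3 of the 4736 genes that the array reads with a probe set of their own. All probe sets that the platform's probe-to-gene table assigns to 1 of the 3 genes alone were taken, which gave 5 of 8740 non-control probe sets. Nqo1 had 2 (J02679_s_at and M58495mRNA_at), Aldh3a1 had 1 (J03637_at) and Ugdh had 2 (AB013732_at and rc_AI103698_at). Of the 5, 4 passed the filter on low values and entered the tests. Aldh3a1 and M58495mRNA_at passed it only through treated arrays, so their passing says nothing about a difference. Ugdh probe set rc_AI103698_at did not pass.

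The cells were liver cells of female Crl:CD(SD)IGS BR rats, cultured as 2 pools of 3 animals and exposed for 48 h. TCDD was given at log10 molar doses of -14, -12, -10, -8 and -6.5 to both pools and of -11 and -9 to pool 2 alone (12 arrays). PCB 126 was given at -12, -10, -8, -6 and -5 to both pools and at -11 and -9 to pool 2 alone (12 arrays), and the vehicle, 0.5% DMSO, to both pools (2 arrays). Pool 1 had 11 arrays and pool 2 had 15, so most groups held 1 array from each pool and 4 groups held a single array. Cultures of 1 pool share their animals, and the 2 arrays of a group are the only independent samples of it. Hepatocyte genes were bright on every array: albumin (Alb) lay between 13.72 and 14.50 log2. Markers of other liver cells were uneven. The smooth muscle and stellate cell gene Tagln ran from 6.15 to 11.28 log2 and the macrophage gene Lyz2 from 6.43 to 8.84. The bile duct gene Epcam reached 6.40 and the endothelial gene Kdr 5.86. Some other markers of those cells were dim: Des stayed at or below 1.82 log2, C1qb at or below 3.01, Krt19 at or below 3.17 and Pecam1 at or below 3.49. Of the stellate cell and macrophage markers, however, Acta2 reached 6.06, Ptprc 6.01, Cd14 5.45 and Col3a1 4.91.

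TCDD is a chlorinated dioxin whose aromatic rings are joined through oxygen bridges, and PCB 126 is a flat chlorinated biphenyl whose rings are joined directly. Both are ligands of AhR, the aryl hydrocarbon receptor, which once bound moves to the nucleus, pairs with Arnt and attaches to DNA at xenobiotic response elements. The genes it drives include the cytochromes P450 of the CYP1 family, which oxidise polycyclic compounds, and a set of enzymes that handle the reactive products. Nqo1 (NAD(P)H quinone dehydrogenase) reduces quinones to hydroquinones and is also a standard target of NRF2, the transcription factor of the oxidant response, which binds antioxidant response elements. Aldh3a1 (the dioxin-inducible aldehyde dehydrogenase) oxidises aromatic and lipid-derived aldehydes and is scarcely expressed in unexposed rat liver. Ugdh (UDP-glucose dehydrogenase) makes UDP-glucuronate, the sugar donor that the UDP-glucuronosyltransferases transfer to drugs, steroids and bilirubin.

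The promoters of Nqo1, which rose with dose, and Ugdh, which did not pass the dose tests, are shown because the response elements named above are short DNA words that can be looked for in them. Each is the 250 bases before the annotated start in RefSeq on the build GRCr8, read 5′ to 3′ on the strand of the gene. Nqo1 lies at chr19:52220268-52220517 on the minus strand and Ugdh at chr14:43202268-43202517 on the plus strand. Capitals mark matches to the xenobiotic element core GCGTG or the antioxidant element core TGACNNNGC, on either strand.
Nqo1: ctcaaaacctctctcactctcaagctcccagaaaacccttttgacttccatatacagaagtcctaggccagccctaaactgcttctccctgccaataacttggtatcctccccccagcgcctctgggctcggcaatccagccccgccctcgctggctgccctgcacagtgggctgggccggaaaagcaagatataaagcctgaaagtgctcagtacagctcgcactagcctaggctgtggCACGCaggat
Ugdh: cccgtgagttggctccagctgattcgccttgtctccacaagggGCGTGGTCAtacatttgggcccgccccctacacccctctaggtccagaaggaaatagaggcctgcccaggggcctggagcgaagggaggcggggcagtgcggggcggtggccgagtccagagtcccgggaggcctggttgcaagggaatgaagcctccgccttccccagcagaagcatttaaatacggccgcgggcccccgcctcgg
The Nqo1 window held 1 match to GCGTG, on the opposite strand as CACGC, 10 to 6 bases before the start, and no match to TGACNNNGC. The Ugdh window held GCGTG 207 to 203 bases before the start and TGACNNNGC on the opposite strand 207 to 199 bases before it, and the matches overlap. Of 33469 rat promoter windows of 250 bases, 25.9% held GCGTG and 10.1% held TGACNNNGC on either strand. These are letter matches in a short window and were not set against the expression values.

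On its bright probe set, J02679_s_at, Nqo1 was already bright in vehicle and rose about 3 log2 units with both chemicals. The other probe set, M58495mRNA_at, was dim in vehicle and had no called rise, and it is described further below. Values given for Nqo1 are those of J02679_s_at unless the other is named. All values are the authors' deposited log2 expression values. In pool 2, Nqo1 (J02679_s_at) had 7.70 in vehicle and, with TCDD from -14 to -6.5, values of 8.25, 8.59, 10.19, 10.52, 10.71, 10.49 and 9.86. In pool 1 it had 7.05 in vehicle and 7.08, 7.40, 10.67, 10.89 and 10.29 with TCDD at -14, -12, -10, -8 and -6.5. In both pools every TCDD array at -10 or above lay above every TCDD array at -12 or below, and in pool 2 the array at -11 did as well. With PCB 126, Nqo1 in pool 2 had 9.06 at -12, 7.94 at -11, 9.21 at -10, 9.85 at -9, 10.43 at -8, 10.66 at -6 and 10.13 at -5. In pool 1 it had 7.44, 8.71, 10.66, 10.02 and 10.07 at -12, -10, -8, -6 and -5. The PCB 126 values thus climbed over a wider span of doses than the TCDD values, and the pool 2 array at -12 stood above the one at -11.

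Aldh3a1 (J03637_at) sat near the bottom of the scale in vehicle and at the low doses, and lay between 7.66 and 8.82 log2 at the 2 highest doses of both chemicals. In pool 2 it had 2.45 in vehicle and 3.21, 3.01, 5.33, 8.10, 8.54, 8.35 and 7.82 with TCDD from -14 to -6.5. In pool 1 it had 2.30 in vehicle and 2.21, 2.31, 5.37, 7.66 and 8.09 with TCDD at -14, -12, -10, -8 and -6.5. The pools differed most at -10, where pool 2 was at its plateau and pool 1 part of the way up. With PCB 126, pool 2 gave 6.45, 2.44, 3.01, 6.27, 8.29, 8.82 and 8.61 from -12 to -5. Pool 1 gave 2.24, 2.18, 8.58, 8.44 and 8.32 at -12, -10, -8, -6 and -5. At -10 neither PCB 126 array was above the highest TCDD array at -12 or below (3.21), and at -8 both were at the plateau. The array labelled PCB 126 at -12 in pool 2 went against this order for both genes, so results that rest on it are also given without it.

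**Figure D1:**
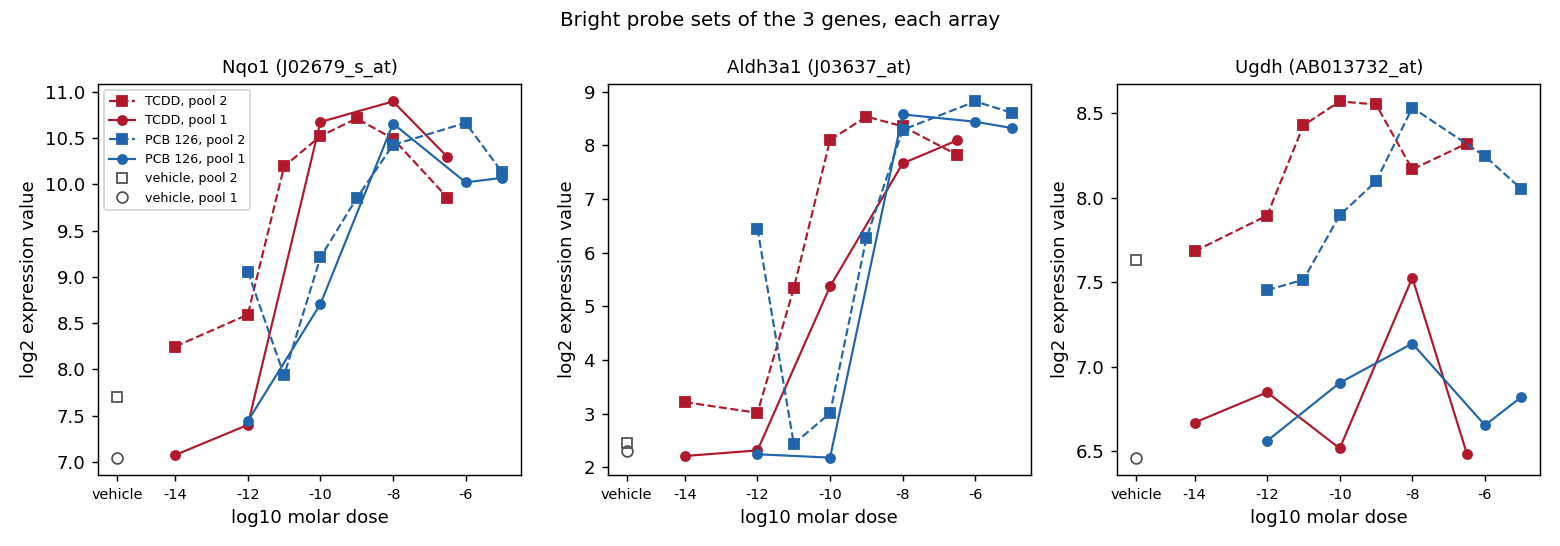
Log2 expression value of the bright probe sets of Nqo1, Aldh3a1 and Ugdh on each of the 26 arrays against log10 molar dose, with vehicle drawn at the left end. Colour marks the chemical, squares and dashed lines pool 2, circles and solid lines pool 1. Nqo1 and Aldh3a1 rose to a plateau with both chemicals, and the squares of Ugdh lie above its circles, except that the highest circle (7.53) passes the lowest squares (7.45 and 7.51).

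The dose trend was tested in limma as the slope of the log2 value on log10 dose within each chemical's arrays, with pool as a term, and p-values were adjusted by Benjamini-Hochberg over 5197 probe sets at a threshold of 0.05. Both trends called 2 of the 4 member probe sets tested, Nqo1 (J02679_s_at) and Aldh3a1, against 3.1% of all probe sets for TCDD and 4.25% for PCB 126. The members were chosen with earlier results of these data known, so this count is a description. With TCDD, Nqo1 rose by 0.40 ± 0.08 log2 per decade of dose (SE, limma adjusted p = 0.00728) and Aldh3a1 by 0.86 ± 0.17 (limma adjusted p = 0.00497). With PCB 126, Nqo1 rose by 0.33 ± 0.08 per decade (limma adjusted p = 0.0230) and Aldh3a1 by 0.89 ± 0.17 (limma adjusted p = 0.00521). The Nqo1 calls rest on single arrays: without the TCDD array at -14 in pool 1 the TCDD slope was 0.35 (limma adjusted p = 0.0521), and without the PCB 126 array at -12 in pool 1 the PCB 126 slope was 0.29 (limma adjusted p = 0.138). It was 0.29 as well without the PCB 126 array at -11 (limma adjusted p = 0.0685). Without the PCB 126 array at -12 in pool 2, the PCB 126 slope was 0.37 for Nqo1 (limma adjusted p = 0.0268), 1.08 for Aldh3a1 (limma adjusted p = 0.00154) and 0.05 for Ugdh (limma adjusted p = 0.503). In whole cultures, fewer cells of a type and less RNA per cell cannot be told apart.

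Within each pool the slopes had the same sign. For TCDD, Nqo1 rose by 0.28 ± 0.12 per decade in pool 2 (limma adjusted p = 0.593) and by 0.53 ± 0.12 in pool 1 (limma adjusted p = 0.0162), in 1 fit with a slope for each pool. Aldh3a1 had 0.83 ± 0.25 in pool 2 and 0.90 ± 0.26 in pool 1 (limma adjusted p = 0.265 and 0.0575). For PCB 126, Nqo1 had 0.29 ± 0.12 in pool 2 and 0.38 ± 0.13 in pool 1, and Aldh3a1 had 0.75 ± 0.25 in pool 2 and 1.05 ± 0.27 in pool 1, with limma adjusted p between 0.110 and 0.315. Without the PCB 126 array at -12, the PCB 126 slopes in pool 2 were 0.35 ± 0.15 for Nqo1 (SE, limma adjusted p = 0.328) and 1.12 ± 0.26 for Aldh3a1 (limma adjusted p = 0.0862), and the TCDD slope of Aldh3a1 in pool 1 had a limma adjusted p of 0.0307. The share of probe sets called within a pool was 0.231% in pool 2 and 4.41% in pool 1 for TCDD, and 0% in pool 2 and 0.173% in pool 1 for PCB 126. The difference between pools was not called for any of the 4 probe sets, against 0.0577% of all probe sets with TCDD and 0% with PCB 126. For Nqo1 with TCDD it was -0.25 log2 per decade, pool 2 minus pool 1, with a 95% interval of -0.61 to 0.11.

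At the 2 highest doses together, both genes stood far above vehicle with both chemicals. Nqo1 was 3.01 ± 0.38 log2 higher with TCDD at -8 and -6.5 (SE, limma adjusted p = 0.000681), which is 8.06-fold, and 2.85 ± 0.38 higher with PCB 126 at -6 and -5 (limma adjusted p = 0.000567), 7.20-fold. Aldh3a1 was 5.61 ± 0.71 log2 higher with TCDD (limma adjusted p = 0.000848) and 6.17 ± 0.71 higher with PCB 126 (limma adjusted p = 0.000421). These 2 probe sets were the only members called of 4 tested, against 2.25% of all probe sets for TCDD and 3.04% for PCB 126. The members were chosen with earlier results of these data known, and Aldh3a1 and M58495mRNA_at passed the filter only through treated arrays. The count is thus a description, and both contrasts use the same 2 vehicle arrays. The Aldh3a1 vehicle values, 2.45 and 2.30, lie under the filter limit of 3.71, where GCRMA draws values together, so no fold is given for it. The plateau of TCDD did not differ detectably from that of PCB 126, at unequal doses: the difference, TCDD minus PCB 126, was 0.16 log2 for Nqo1 (95% interval -0.49 to 0.82) and -0.56 for Aldh3a1 (-1.81 to 0.68), and 0% of probe sets were called in limma (180 had an unadjusted p under 0.05).

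Single doses were also set against vehicle, and the lowest dose called for each gene rests on few arrays. With TCDD, Nqo1 was called at -11 (2.61 log2 higher, limma adjusted p = 0.0225), from 1 array of pool 2, and at each of the 4 higher doses. Aldh3a1 was called at -10 (4.36 log2 higher, limma adjusted p = 0.0162) and the 3 doses above it. Its difference at -11, 2.48 log2 (limma adjusted p = 0.285), was close in size to that of Nqo1, and without the PCB 126 array at -12 in pool 2 it was 2.65 (limma adjusted p = 0.0475), so the calls give no order of the genes. With PCB 126, both were called at -8, -6 and -5 and at no lower dose. At -9, with 1 array, the PCB 126 differences were 2.27 log2 for Nqo1 (limma adjusted p = 0.284) and 3.42 log2 for Aldh3a1 (limma adjusted p = 0.569). Without the PCB 126 array at -12 in pool 2 they were 2.33 (limma adjusted p = 0.0668) and 3.58 (limma adjusted p = 0.0261), so that Aldh3a1 was then called there. At -10 the differences were 1.59 log2 for Nqo1 (limma adjusted p = 0.754) and 0.22 log2 for Aldh3a1 (limma adjusted p = 0.994). The share of all probe sets called at the TCDD doses was 2.39% at -11, 1.23% at -10, 0.731% at -9, 2.12% at -8 and 0.616% at -6.5, with 0% at -14 and -12. For PCB 126 it was 1.4% at -8, 1.48% at -6 and 3% at -5, and at every lower dose 0%. The doses -11 and -9 had 1 array each, and the fit assumes that it varies like the arrays of the other groups.

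The chemicals shared 5 doses, and each was compared for the 4 probe sets in limma, with p-values adjusted over all 5197 probe sets of a dose. At -10, Aldh3a1 had 8.10 (pool 2) and 5.37 (pool 1) in the TCDD arrays, against 3.01 (pool 2) and 2.18 (pool 1) in the PCB 126 arrays. The difference was 4.14 log2 with a 95% interval of 2.38 to 5.90 and was not called (limma adjusted p = 0.0785), while 0.0385% of probe sets were called. The call turned on the PCB 126 group at -12: without its pool 2 array the same difference had a limma adjusted p of 0.00162, and without its pool 1 array of 0.00166. Without the pool 2 TCDD array at -10 itself the difference was 3.16 log2 (limma adjusted p = 0.0470). Nqo1 at -10 was 1.64 log2 higher with TCDD than with PCB 126 (95% interval 0.71 to 2.57, limma adjusted p = 0.237), and without the pool 2 TCDD array 1.95 (limma adjusted p = 0.0280). Without the PCB 126 array at -12 in pool 2 its limma adjusted p was 0.139. Over all arrays left out in turn, the limma adjusted p at -10 ran from 0.0280 to 0.999 for Nqo1 and from 0.00162 to 0.531 for Aldh3a1. The number of probe sets called at -10, 2 with all arrays, was 0 without the pool 1 TCDD array of that dose and 885 without the pool 2 one.

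At -11, where each chemical had 1 array, Nqo1 was 10.19 with TCDD and 7.94 with PCB 126, a difference of 2.26 log2 (95% interval 0.94 to 3.57, limma adjusted p = 0.0691). Without the pool 2 PCB 126 array at -12 the limma adjusted p was 0.0410, and without its pool 1 array it was 0.0409. Aldh3a1 differed there by 2.90 log2 (0.40 to 5.39, limma adjusted p = 0.269, or 0.0560 without the pool 2 PCB 126 array at -12), and 2.62% of all probe sets were called. At -9 the differences were 0.86 log2 for Nqo1 (-0.45 to 2.17) and 2.27 for Aldh3a1 (-0.23 to 4.76). At -8 the chemicals were close for both genes, with 0.15 log2 for Nqo1 (-0.78 to 1.08) and -0.42 for Aldh3a1 (-2.19 to 1.34). At -12 Aldh3a1 differed by -1.68 log2 (-3.44 to 0.08, limma adjusted p = 0.970), and without the pool 2 PCB 126 array by 0.11 (limma adjusted p = 0.969), with 0.41 for Nqo1 (limma adjusted p = 0.819). No probe set was called in limma at -12, -9 or -8 (0% of 5197), where 101, 55 and 103 had an unadjusted p under 0.05.

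**Figure D2:**
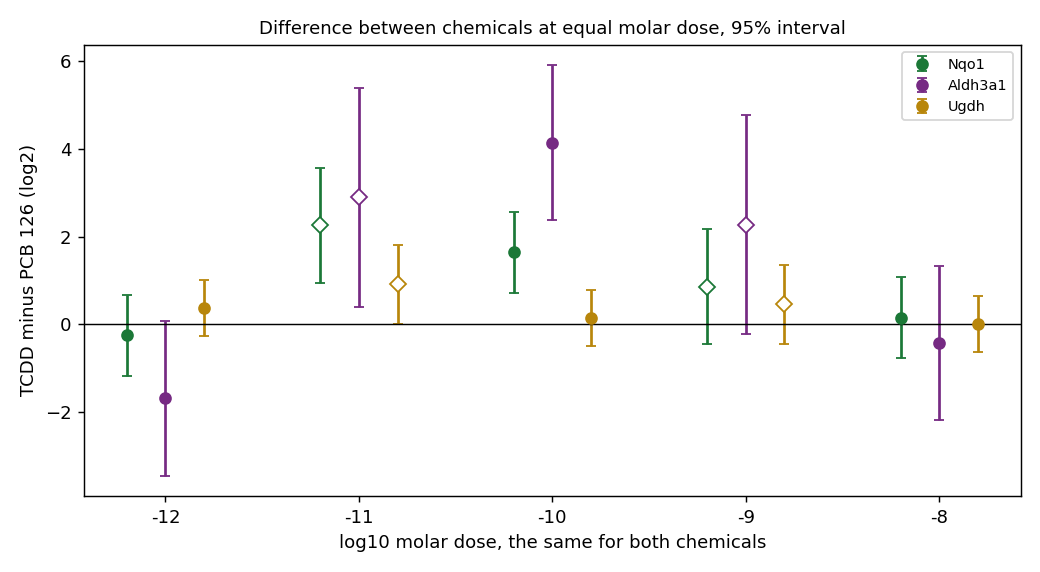
Difference in log2 value, TCDD minus PCB 126, at each dose that both chemicals shared, with 95% intervals from the fit across all probe sets. Filled circles are doses with 2 arrays of each chemical and open diamonds doses with 1. The differences of Nqo1 and Aldh3a1 lie above 0 at -11 and -10, and at -8 their intervals hold 0.

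The dose at which each gene reached the midpoint of its own rise gives the order without a test. The midpoint is the log2 level midway between the vehicle array of a pool and the mean of its 2 highest doses, read by straight-line interpolation on log10 dose where values cross it for good. For Nqo1 with TCDD it lay at -11.79 in pool 2 and -11.13 in pool 1, which are 1.64 and 7.38 pM. With PCB 126 it lay at -10.13 in pool 2 and -10.25 in pool 1, which are 74.6 and 55.9 pM. For Aldh3a1 with TCDD it lay at -11.03 in pool 2 and -10.18 in pool 1, or 9.39 and 65.4 pM. With PCB 126 it lay at -9.21 in pool 2 and -9.01 in pool 1, or 616 and 974 pM. In all 4 pairs of pool and chemical, Aldh3a1 reached its midpoint at a higher dose than Nqo1, by 0.76 decades in pool 2 and 0.95 in pool 1 with TCDD and by 0.92 and 1.24 decades with PCB 126. These gaps rest on Aldh3a1 vehicle values under 3.71 log2. A true level below the measured one would lower its midpoint level and with it the midpoint dose, by an amount that was not tested.

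With all arrays, the TCDD midpoint was below the PCB 126 midpoint for both genes in both pools. The gap, TCDD minus PCB 126, was -1.66 decades in pool 2 and -0.88 in pool 1 for Nqo1, and -1.82 and -1.17 for Aldh3a1. As concentrations, the TCDD midpoint was 45.5-fold lower in pool 2 and 7.57-fold lower in pool 1 for Nqo1, and 65.6-fold and 14.9-fold lower for Aldh3a1. The pool 2 midpoints of both genes with PCB 126 were -10.13 and -9.21 without the array at -12 too. Most doses were 2 decades apart in pool 1, so its midpoints are interpolated over wider gaps than those of pool 2. Without the PCB 126 array at -11, the pool 2 midpoint of Nqo1 with that chemical was only bounded, at or below the lowest dose, -12. The high array at -12, with 9.06, was then already over the midpoint level, though barely, as that level is midway between 7.70 and 10.40. This bound lies below the pool 2 TCDD midpoint of -11.79, so the order for Nqo1 in pool 2 did not hold without the array at -11. That reversal rests on the array at -12. With the array at -12 left out instead, the midpoint was -10.13 and the order held, with a gap of -1.66 decades. Averaged over the pools, with the bound, the value was -11.13, and with all arrays it was -10.19.

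The CYP1 genes give a scale against which these doses can be read. The 3 genes have 8 probe sets of their own, and each gene was read on its brightest. Vehicle values of Cyp1a1 (3.28 in pool 2, 3.45 in pool 1), Cyp1a2 (3.39 and 3.54) and Cyp1b1 in pool 2 (3.70) lie under 3.71 log2. The limit given for the Aldh3a1 midpoints thus holds there too. Cyp1a1 had TCDD midpoints of -12.93 in pool 2 and -12.45 in pool 1, Cyp1a2 of -11.59 and -11.52, and Cyp1b1 of -11.21 and -10.66. With PCB 126, Cyp1a1 had its midpoint at -10.81 in pool 1 and at or below the lowest dose, -12, in pool 2, and without the array at -12 there at or below -11. Cyp1a2 had PCB 126 midpoints of -10.25 in pool 2 and -10.79 in pool 1, and Cyp1b1 of -9.36 and -8.97. With TCDD the midpoint of Nqo1 was above that of Cyp1a1 by 1.14 decades in pool 2 and 1.32 in pool 1, and that of Aldh3a1 by 1.90 and 2.26 decades. In their order of midpoints Nqo1 stood beside Cyp1a2, and Aldh3a1 beside Cyp1b1, where the pools of neighbouring genes overlap.

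**Figure D3:**
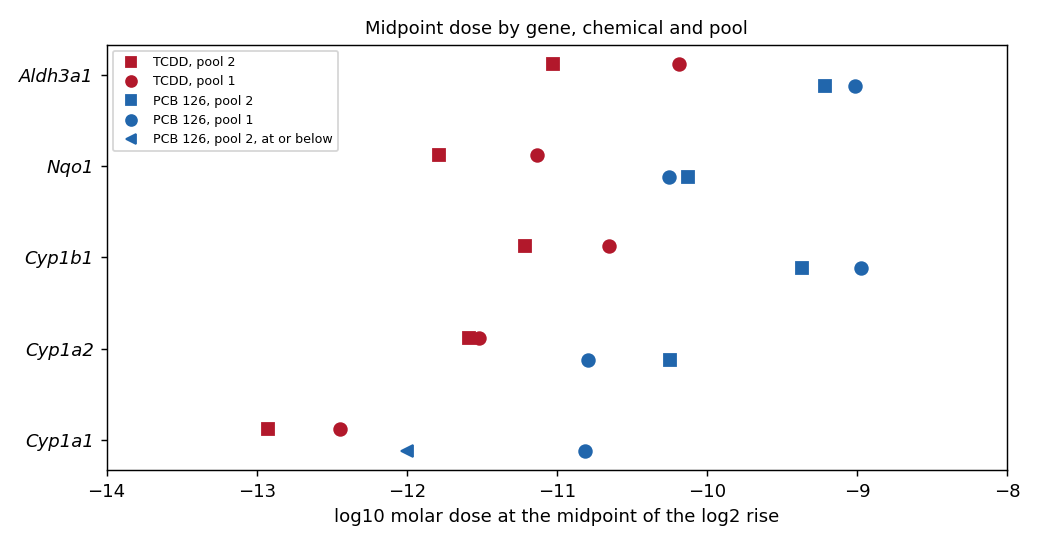
Log10 molar dose at the midpoint of the log2 rise for Aldh3a1, Nqo1 and the CYP1 genes, with 1 point per chemical and pool and no error. The triangle marks Cyp1a1 with PCB 126 in pool 2, where the midpoint is at or below the lowest dose. TCDD points lie left of PCB 126 points in every gene and pool except Cyp1a1 in pool 2, where PCB 126 has only that bound, and Aldh3a1 lies right of Nqo1 throughout.

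Single arrays showed Cyp1a1 up without Aldh3a1. On 6 of the 24 treated arrays Cyp1a1 was more than 2 log2 above the vehicle of its pool while Aldh3a1 was less than 1 log2 above it; these limits were chosen after the values were seen. They were the TCDD arrays at -12 in both pools and at -14 in pool 2, and the PCB 126 arrays at -10 in both pools and at -11 in pool 2. On the PCB 126 array at -10 of pool 1, Cyp1a1 was 7.70 log2 above vehicle, Nqo1 1.66 log2 above and Aldh3a1 at -0.12. On 4 arrays Cyp1a1 was past its limit while Nqo1 was not. On 0 of the 24 arrays was Nqo1 or Aldh3a1 more than 2 log2 up with Cyp1a1 under 1. The array labelled PCB 126 at -12 in pool 2 had Cyp1a1 7.53 log2 and Nqo1 1.36 log2 above vehicle and Aldh3a1 at 6.45, against 2.45 in vehicle. In the same pool, PCB 126 at -10 had Cyp1a1 7.56, Nqo1 1.51 and Aldh3a1 0.56 log2 above vehicle, and at -9 it had 8.52, 2.15 and 3.82. The array at -12 was thus close to the one at -10 in Cyp1a1 and Nqo1 and to the one at -9 in Aldh3a1, and to neither in all 3 genes.

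**Figure D4:**
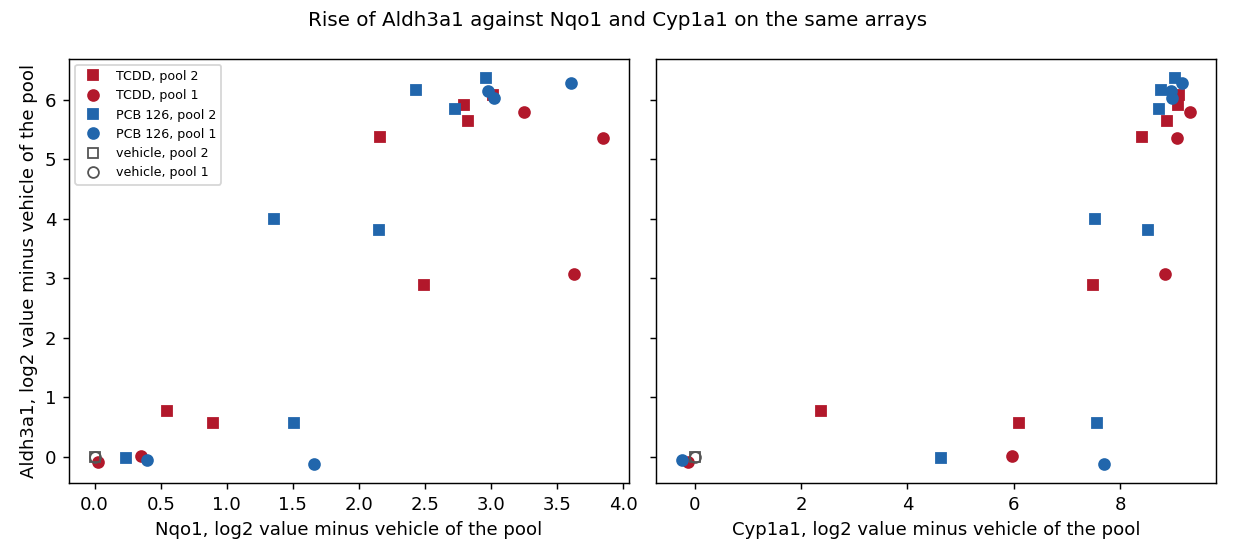
Log2 value minus the vehicle array of the same pool for Aldh3a1 (vertical) against Nqo1 (left) and Cyp1a1 (right), 1 point per array. Vehicle arrays lie at 0 by construction. In the right panel a row of arrays runs along the bottom, with Cyp1a1 up to 7.70 log2 above vehicle and Aldh3a1 under 1.

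The probe sets of Nqo1 did not give the same picture. M58495mRNA_at stayed dim on all 11 arrays of pool 1, between 2.12 and 2.60 log2, where J02679_s_at ran from 7.05 to 10.89. In pool 2 it had 2.08 in vehicle and 2.03, 2.06, 2.26, 3.13, 4.09, 4.34 and 2.77 with TCDD from -14 to -6.5. With PCB 126 from -12 to -5 it had 2.11, 2.03, 2.11, 3.29, 4.07, 4.39 and 2.46 there. The pool 2 values were highest at -8 with TCDD and at -6 with PCB 126, and lower at the dose above. In pool 2 its slopes were 0.25 ± 0.10 log2 per decade with TCDD (SE, limma adjusted p = 0.593) and 0.22 ± 0.10 with PCB 126 (limma adjusted p = 0.367). In the fit of both pools together, the highest dose minus the next lower one was -0.63 log2 with TCDD (limma adjusted p = 0.999). With PCB 126 it was -0.94 (limma adjusted p = 0.381). These averages hide a difference between pools, since only the pool 2 values fell. In pool 1 the probe set went from 2.29 at -8 to 2.60 at -6.5 with TCDD. With PCB 126 it went there from 2.43 at -6 to 2.48 at -5. Over both pools its slopes were 0.14 ± 0.08 log2 per decade with TCDD (SE, limma adjusted p = 0.397) and 0.14 ± 0.08 with PCB 126 (limma adjusted p = 0.345), and it was called in no dose comparison. The suffix _s_at marks a probe set whose probes match several transcripts of the array's design, and which transcripts each Nqo1 probe set reads was not tested.

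No dose comparison of Ugdh was called, and the call it had was between pools. AB013732_at in pool 2 had 7.63 in vehicle, 7.68, 7.89, 8.43, 8.57, 8.55, 8.17 and 8.32 with TCDD from -14 to -6.5, and 7.45, 7.51, 7.90, 8.10, 8.53, 8.25 and 8.05 with PCB 126 from -12 to -5. In pool 1 it had 6.46 in vehicle, 6.67, 6.85, 6.52, 7.53 and 6.48 with TCDD, and 6.56, 6.90, 7.14, 6.65 and 6.82 with PCB 126. All pool 2 arrays at -11 or above, except PCB 126 at -11, lay over the pool 2 vehicle, and in pool 1 the TCDD array at -8 was the high one. Ugdh slopes were 0.05 ± 0.04 log2 per decade with TCDD (SE, limma adjusted p = 0.570) and 0.07 ± 0.04 with PCB 126 (limma adjusted p = 0.354). At the 2 highest doses it was 0.58 ± 0.26 log2 above vehicle with TCDD (95% interval 0.03 to 1.13, limma adjusted p = 0.428) and 0.40 ± 0.26 with PCB 126 (-0.16 to 0.95, limma adjusted p = 0.626). Single doses with an interval above 0 were TCDD at -8 (0.80 log2, 95% interval 0.16 to 1.44, limma adjusted p = 0.285), TCDD at -9 (0.87, 0.08 to 1.67, limma adjusted p = 0.567) and PCB 126 at -8 (0.79, 0.15 to 1.43, limma adjusted p = 0.336). These intervals are not adjusted for the number of probe sets, and after adjustment such rises could not be told from the spread.

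Between pools, Ugdh was 1.30 ± 0.13 log2 higher in pool 2 than in pool 1 (SE, limma adjusted p = 5.8e-09). Pool 2 ran from 7.45 to 8.57 and pool 1 from 6.46 to 7.53, so that the pools met only where the highest pool 1 array passed the lowest pool 2 arrays. Pools differed widely, with 79.8% of all probe sets called, and 2 of the 4 members tested were, Ugdh and M58495mRNA_at (0.58 ± 0.26, limma adjusted p = 0.0442). Nqo1 on J02679_s_at differed by 0.48 ± 0.29 (limma adjusted p = 0.127) and Aldh3a1 by 0.91 ± 0.57 (limma adjusted p = 0.148). Array medians averaged 3.58 log2 in pool 2 and 3.85 in pool 1. With arrays centred on their median, Nqo1 on J02679_s_at differed by 0.75 and was called (limma adjusted p = 0.0201). Ugdh then differed by 1.57, and Aldh3a1, at 1.18, was still not called (limma adjusted p = 0.0596). The other Ugdh probe set, rc_AI103698_at, read from 2.30 to 2.57 in pool 2 and from 2.52 to 2.77 in pool 1, so it was lower in pool 2. In a fit without the filter its slopes were -0.007 ± 0.007 log2 per decade with TCDD (SE, limma adjusted p = 0.621) and 0.014 ± 0.007 with PCB 126 (limma adjusted p = 0.353).

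**Figure D5:**
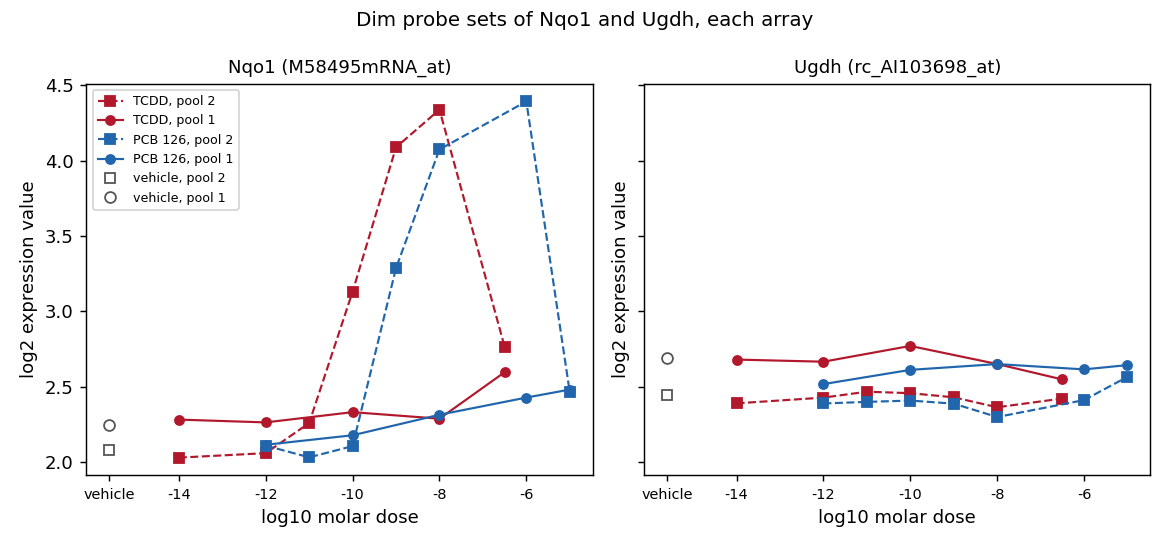
Log2 value of the dim probe sets of Nqo1 (left) and Ugdh (right) on each array against log10 molar dose, with vehicle at the left end. Only pool 2 arrays of the Nqo1 probe set exceed 3 log2, with 2.77 and 2.46 at the highest dose of TCDD and PCB 126.

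The genes whose profile was most like each member were named by Pearson's r over the 26 arrays, on values centred on the mean of each pool, among 3033 other genes. These are descriptions: all genes share the arrays, the doses and the hepatocyte cultures. Nqo1 was most like Lcn2 (0.93), an iron-carrier binding protein, Cyp1a2 (0.93), the steroid hydroxylase Cyp2a1 (0.93), the paraoxonase Pon1 (0.93) and the cyclic AMP phosphodiesterase Pde4b (0.92). Aldh3a1 was most like Cyp1b1 (0.97), then the histidine-degrading enzyme Hal (0.95), Pon1 (0.94), the tyrosine aminotransferase Tat (0.93) and the growth-factor binding protein Igfbp1 (0.92). Nqo1 and Aldh3a1 correlated at 0.89 with each other, each ranking 14 in the list of the other. Ugdh was most like Mettl7b (0.80) and the lipid-droplet enzyme Hsd17b13 (0.79), then Slc41a2 (0.72), Litaf (0.71) and Pde4b (0.70), and its r was 0.62 with Nqo1 and 0.54 with Aldh3a1. Left uncentred, 4 of the 5 genes named for Nqo1 and 3 of the 5 for Aldh3a1 recurred, and 0 of the 5 for Ugdh. The gene that dropped out for Nqo1 was Lcn2, the one ranked first, with an r of 0.73 uncentred. On centred values, Spearman's rho gave another order. For Aldh3a1, Cyp1b1 had a rho of 0.86, below Tat with 0.90. For Nqo1, Cyp1a1 had a rho of 0.94, above Lcn2 with 0.89.

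The dose trends of genes in the surrounding pathways were counted by list. Each gene is counted once, by its brightest probe set, and lists were chosen with earlier results known. Among 9 measured genes of the AhR list, 6 had a rising TCDD trend and 4 a rising PCB 126 trend, against 1.64% and 1.56% of probe sets. With TCDD they were Cyp1a1, Cyp1a2, Cyp1b1, Nqo1, Aldh3a1 and the receptor gene Ahr itself (0.14 ± 0.03 log2 per decade, SE, limma adjusted p = 0.0143), and with PCB 126 Cyp1a2, Cyp1b1, Nqo1 and Aldh3a1. Cyp1a1 with PCB 126 had 0.73 ± 0.21 (limma adjusted p = 0.0535) and Ahr 0.11 ± 0.03 (limma adjusted p = 0.0646), and without the PCB 126 array at -12 in pool 2 the list had 5 rising, Cyp1a1 added, against 1.44% of probe sets. The partner gene Arnt had slopes of 0.001 and -0.002 log2 per decade. Nfe2l2, which encodes NRF2, had 0.09 ± 0.04 with TCDD (limma adjusted p = 0.246) and 0.03 ± 0.04 with PCB 126 (limma adjusted p = 0.648). The AhR list holds Nqo1, Aldh3a1 and Ugdh themselves, so its counts are not separate from theirs. Its median slope, 0.40 with TCDD and 0.33 with PCB 126, was that of Nqo1. Over 3034 genes the median was -0.01 and 0.005.

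Of 23 measured genes of the NRF2 list, Nqo1 was the only one with a called rising TCDD trend, and 3 had a called falling one. Over all probe sets 1.64% rose and 1.46% fell. With TCDD 10 of the 23 had an unadjusted p under 0.05, some rising and some falling, against 753 of all 5197 probe sets. The falling genes were Ephx1, the microsomal epoxide hydrolase (-0.13 ± 0.03 log2 per decade, SE, limma adjusted p = 0.0178), Gclc, a subunit of the enzyme that limits glutathione synthesis (-0.10 ± 0.03, limma adjusted p = 0.0302), and the aldehyde reductase Akr7a3 (-0.18 ± 0.05, limma adjusted p = 0.0342). With PCB 126, 2 had a called rising trend, Nqo1 and the bile canaliculus exporter Abcc2 (0.11 ± 0.03, limma adjusted p = 0.0269), and 0 a falling one. Over all probe sets 1.56% rose and 2.69% fell. An unadjusted p under 0.05 was found for 8 of the 23, against 877 of all 5197 probe sets. Abcc2 had a similar slope with TCDD, 0.09 ± 0.03, short of the threshold (limma adjusted p = 0.0936). The oxidant-response gene Hmox1 had 0.03 log2 per decade with either chemical. The list's median slope was 0.01 with TCDD and 0.005 with PCB 126.

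Of 7 measured aldehyde dehydrogenases, Aldh3a1 was the only one with a rising trend, with both chemicals, and Aldh1a1, which oxidises retinal, the only one with a falling trend. Over all probe sets 1.64% rose and 1.46% fell with TCDD, and 1.56% rose and 2.69% fell with PCB 126. Aldh1a1 had -0.29 ± 0.06 log2 per decade with TCDD (SE, limma adjusted p = 0.00940) and -0.26 ± 0.06 with PCB 126 (limma adjusted p = 0.0153). Of 9 genes of quinone and carbonyl reduction, Nqo1 rose with both chemicals and Akr7a3 fell with TCDD. Of 12 genes of UDP-glucose and glucuronate metabolism, 0 rose with either chemical. With TCDD 2 fell, the glucuronosyltransferases Ugt2b1 (-0.08 ± 0.02, limma adjusted p = 0.0438) and Ugt2b35 (-0.16 ± 0.04, limma adjusted p = 0.0417), and without the PCB 126 array at -12 in pool 2 only Ugt2b35 was called. With PCB 126 limma called 0 of the 12, and 0 had an unadjusted p under 0.05, against 877 of all 5197 probe sets. The median slopes were 0.01 and 0.02 for the aldehyde dehydrogenases with TCDD and PCB 126, -0.02 and -0.02 for quinone and carbonyl reduction, and -0.02 and 0.003 for the glucuronate list.

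Markers of hepatocytes and other liver cells share the cultures, and their trends were counted too. The trends called 1 of 7 hepatocyte and 1 of 3 Kupffer cell and macrophage markers with each chemical, and of 4 stellate cell markers 0 with TCDD (limma, 1 at an unadjusted p under 0.05) and 1 with PCB 126. The shares over all probe sets were 1.64% higher and 1.46% lower with TCDD, and 1.56% higher and 2.69% lower with PCB 126. With TCDD, 753 of all 5197 probe sets had an unadjusted p under 0.05. Of the 7 measured hepatocyte markers, the urea cycle enzyme gene Cps1 fell with TCDD by 0.21 ± 0.05 log2 per decade (SE, limma adjusted p = 0.0249) and Apob rose with PCB 126 by 0.26 ± 0.06 (limma adjusted p = 0.0107). Of the macrophage markers, Lyz2 fell with both chemicals, by 0.19 ± 0.04 log2 per decade with TCDD (SE, limma adjusted p = 0.00915) and by 0.17 ± 0.04 with PCB 126 (limma adjusted p = 0.0222). The other macrophage markers had no called trend: Cd14 had slopes of 0.13 with TCDD (limma adjusted p = 0.105) and 0.07 with PCB 126 (limma adjusted p = 0.384), and Ptprc -0.02 (limma adjusted p = 0.793) and 0.05 (limma adjusted p = 0.384). Of the stellate cell markers, Tagln fell with PCB 126 by 0.48 ± 0.09 (limma adjusted p = 0.00549) and had -0.28 ± 0.09 with TCDD (limma adjusted p = 0.118). Summed levels are carried mostly by the brightest marker, Tagln in the stellate list, whose next gene Acta2 stayed at or below 6.06 log2, and Lyz2 in the macrophage list. The summed level of the stellate list ran in pool 2 from 8.23 to 11.01 log2 with TCDD and from 8.86 to 11.34 with PCB 126, against 11.14 in vehicle. In pool 1 it ran from 8.19 to 10.98 with TCDD and from 7.40 to 10.57 with PCB 126, against 10.63 in vehicle. The macrophage list ran in pool 2 from 7.91 to 8.85 with TCDD and from 8.15 to 8.72 with PCB 126, against 9.01 in vehicle, and in pool 1 from 7.50 to 8.60 and from 7.77 to 8.75, against 8.62. The part of these cells in the trends of Nqo1, Aldh3a1 and Ugdh was not tested.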

How the data were processed

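Expression was read on 26 Affymetrix RG-U34A arrays of 8799 probe sets, 59 of them controls. The authors deposited log2 values summarised with GCRMA 2.8.0, per the submitters' processing notes, which name RMA too without its role. No scanner files were used, background and normalization could therefore not be varied, and the number of arrays limits the precision. From these values limma 3.58.1 (R 4.3.3) fitted a trend model (pool, chemical and a slope per chemical on log10 dose) and a model of 15 groups plus pool, with eBayes set to trend and robust. Probe sets were kept where their second-highest value exceeded 3.71, the median of all values, which left 5197 for the Benjamini-Hochberg adjustment. Pool is in the model since the labels tie arrays to pools; deviations of same-pool arrays from their group means correlated at 0.48 to 0.89. Scripts were tested on simulated data. Named genes are the members, the AhR list, the 5 genes most like each member and up to 4 called genes of each other list. Members and lists were chosen with earlier results of these data known. Of the probe sets, 7006 had 1 gene symbol, 308 several and 1426 none. Promoters come from RefSeq, and 2 of the 3 genes matched.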

Additional observations from a re-analysis of the deposited data

How the results depend on the processing

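The contrasts of the 2 highest doses with vehicle for Nqo1, Aldh3a1 and Ugdh kept their direction and their side of the threshold under each of the 4 alternatives and without any single array. Dose trends were less stable. Without the replicate block, that is with pool left out, the Nqo1 slope with PCB 126 was 0.32 (limma adjusted p = 0.0843), and with only the doses that both pools had it was 0.30. Fitted on the TCDD arrays alone, the Nqo1 slope was 0.40 (limma adjusted p = 0.0602). In pool 2 alone the slopes lost their calls at 0.28 (Nqo1) and 0.83 (Aldh3a1) with TCDD and 0.29 and 0.75 with PCB 126, and in pool 1 alone at 0.53, 0.90, 0.38 and 1.05, from fewer arrays. Leaving out each array in turn gave slopes of 0.35 to 0.50 for Nqo1 with TCDD and 0.29 to 0.38 with PCB 126. TCDD minus PCB 126 at -10 ran from 1.32 to 1.95 for Nqo1 and from 3.16 to 5.12 for Aldh3a1, and at -11 it was 2.26 for Nqo1, which leaving out other arrays cannot move since each chemical has 1 array there (limma adjusted p from 0.0409 to 0.0943). Midpoints averaged over pools ran from -12.04 to -11.08 (Nqo1, TCDD), from -11.13 to -10.05 (Nqo1, PCB 126) and from -9.63 to -8.60 (Aldh3a1, PCB 126). The Nqo1 midpoint with PCB 126, -10.19, became -9.91 with the lowest dose in the low level, -11.13 with doses of both pools and -9.94 with the highest value as the high level; the Aldh3a1 midpoint became -8.93 with the lowest dose in the low level. Both values of -11.13 average the pool 1 midpoint with a bound for pool 2, at or below the lowest dose, -12. The cause of the other shifts was not tested.

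Counts of probe sets called moved more. The TCDD trend called 161, but 39 without the replicate block, 103 with arrays centred on their median, 408 with vehicle placed below the lowest dose, 12 in pool 2 alone, 0 in pool 1 alone and 46 with only TCDD arrays. The PCB 126 trend called 221, but 56 without the block, 504 with vehicle placed below the lowest dose, 104 with doses of both pools, 106 without the highest dose, 110 in pool 2 alone, 0 in pool 1 alone and 367 with only PCB 126 arrays. High TCDD against vehicle called 117, but 27 without the block and 66 centred, and high PCB 126 called 158, but 39 without the block. Leaving out 1 array gave 81 to 257 for the TCDD trend and 53 to 371 for the PCB 126 trend.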

Other observations

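Values at the highest dose lay below those of the next lower dose on several curves, a comparison added after the values were seen. Nqo1 (J02679_s_at) had 9.86 (pool 2) and 10.29 (pool 1) at TCDD -6.5, against 10.49 and 10.89 at -8, a difference of -0.62 log2 (95% interval -1.55 to 0.31, limma adjusted p = 0.957). With PCB 126 its difference, -5 minus -6, was -0.24 (-1.17 to 0.69, limma adjusted p = 0.770), and that of M58495mRNA_at was -0.94 (-2.26 to 0.38, limma adjusted p = 0.381). Aldh3a1 had -0.05 for TCDD (-1.82 to 1.71, limma adjusted p = 0.999) and -0.16 for PCB 126 (-1.93 to 1.60, limma adjusted p = 0.928). The TCDD value averages opposite moves. From -8 to -6.5 Aldh3a1 went from 8.35 to 7.82 in pool 2 and from 7.66 to 8.09 in pool 1. limma called no probe set in either comparison (0% of 5197), where 265 and 873 had an unadjusted p under 0.05.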
